A study of Mus musculus with 6 samples.

Results

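Of the 54532 genes counted in inguinal white adipose tissue, 6 are described here. They are Cdo1, the gene deleted in the study, and 5 genes that parallel Cdo1 or make or move the products of its enzyme: Ado, Csad, Fmo1, Got1 and Slc6a6. They were chosen by name and role, with earlier results of these data known, and each name stood on 1 row of the count table. The libraries were 3 from Cdo1AKO mice, in which Cdo1 was knocked out in adipose tissue, and 3 from control mice with the floxed gene (Cdo1 flox/flox, named WT in the genotype field). Feeding of both groups with high-fat diet began at an age of 8 weeks and lasted 15 weeks. The driver of the deletion, the floxed exons and the number of mice behind a library are not given in the sources used here.

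Cysteine dioxygenase 1, the product of Cdo1, oxidises cysteine to cysteine sulfinate. Cysteine sulfinate decarboxylase (Csad) turns that product into hypotaurine, which the flavin monooxygenase Fmo1 can oxidise to taurine. The cytosolic aspartate aminotransferase (Got1) can draw cysteine sulfinate off the route towards pyruvate and sulfite. Cysteamine dioxygenase (Ado) reaches hypotaurine without cysteine sulfinate, from cysteamine, a product of coenzyme A breakdown. Slc6a6 is the plasma membrane transporter that takes up taurine with sodium. White fat is a tissue with high Cdo1 expression.

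The libraries held 16275184 to 19205804 counts. Control 1 and Cdo1AKO 2 stood apart from the rest. The summed level of 14 B cell and lymph node markers was 9.19 CPM (read counts scaled to library size with TMM factors) in Cdo1AKO 2 and 6.80 CPM in control 1. In the other 4 libraries it was 996 and 1019 CPM in Cdo1AKO 1 and 3, against 1550 and 879 CPM in control 2 and 3. The defining adipocyte markers were all present: the sum of 14 was 29112, 61995 and 30871 CPM in Cdo1AKO 1 to 3, against 71828, 47280 and 56281 CPM in control 1 to 3. T and natural killer cell markers summed to 757, 15.5 and 766 CPM in Cdo1AKO 1 to 3, against 14.3, 261 and 163 CPM in control 1 to 3. Summed Schwann cell markers were 17.0 to 18.1 CPM in Cdo1AKO and 46.7 to 82.0 CPM in control. All 5 genes were lower in every Cdo1AKO library than in any control, as were 9.73% of all tested genes. Sox10 had only 7, 12 and 14 counts and Mal 20, 16 and 15 counts in Cdo1AKO 1 to 3. Progenitor and fibroblast markers summed to 1722, 4640 and 1626 CPM in Cdo1AKO 1 to 3, against 1294 to 1788 CPM in control. In Cdo1AKO 2, Col3a1 had 2739 and Col1a1 944 CPM of that sum. Macrophage markers summed to 578 to 675 CPM in Cdo1AKO and 372 to 649 CPM in control, with Lyz2 at 302 to 475 and 180 to 482 CPM. Of the 7 macrophage markers, 4 (Adgre1, Cd68, Csf1r and Trem2) were higher in Cdo1AKO without overlap and 1 (Cd14) lower. Without overlap, 8.87% of all tested genes were higher and 9.73% lower. The part of these cell types in the results below was not tested, other than for lymph node and adipocyte transcripts. Each gene is therefore also given with lymph node in the model and relative to the adipocyte markers. In whole tissue, fewer cells of a type and less RNA per cell cannot be told apart.

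Cdo1 transcripts were lower in the Cdo1AKO libraries but far from absent. Cdo1, ENSMUSG00000033022, lies on the minus strand of chromosome 18 between 46713205 and 46728342 (mm10, as for all genes here). Its counts were 2466, 6087 and 2447 in Cdo1AKO 1 to 3, against 14452, 8078 and 11763 in control 1 to 3. Relative to the control mean CPM, these are 18.97%, 60.3% and 20.7% in Cdo1AKO 1 to 3, against 136%, 66.5% and 97.1% in control 1 to 3. The groups did not overlap, and Cdo1AKO 2 lay just under control 2. Of the 6 genes 3 were without overlap and lower in Cdo1AKO, as were 9.73% of all tested genes. The log2 fold change of Cdo1AKO over control was -1.59 ± 0.53 (SE, 3 libraries per group, 95% interval -2.88 to -0.29). With Benjamini-Hochberg adjustment over all 16623 tested genes it did not pass edgeR's quasi-likelihood test (adjusted p = 0.416). That test called 0 genes at an adjusted p under 0.05, against 1724 (10.4%) at an unadjusted p under 0.05, of which the lower ones were 5.71% of tested genes. Cdo1, Csad, Slc6a6 and Fmo1, 4 of the 6 genes, were among the lower ones. Without Cdo1AKO 2 the log2 fold change was -2.33, with an edgeR adjusted p of 0.0719. The annotation lists at most 5 exons for a coding transcript of Cdo1, and the counts are per gene, so the deleted exons cannot be read apart from the others.

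Cdo1 was still a high transcript in Cdo1AKO fat. Per kilobase of gene length it ranked 433, 170 and 388 among 13885 tested protein-coding genes in Cdo1AKO 1 to 3, against 57, 105 and 72 in control 1 to 3. Its level per length in Cdo1AKO 1, 80.4 CPM per kilobase, was above the level of Csad in control 2 and below it in controls 1 and 3.

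Csad, the decarboxylase that follows Cdo1, had a lower level in every Cdo1AKO library than in any control. Csad, ENSMUSG00000023044, lies on the minus strand of chromosome 15 between 102176999 and 102204724. It had 159, 199 and 154 CPM in Cdo1AKO 1 to 3, against 449, 262 and 337 CPM in control 1 to 3. The means were 170.5 ± 24.8 CPM in Cdo1AKO and 349 ± 93.9 CPM in control (SD, n = 3 each), a level in Cdo1AKO of 48.8% of control. The log2 fold change was -1.04 ± 0.24 (SE, 95% interval -1.62 to -0.45, edgeR adjusted p = 0.345). In the authors' deposited table Csad has an adjusted p of 0.0280, and Cdo1 has 0.0825. Csad was the single gene of the 6 under 0.05 in that table, where 0.655% of the 27492 genes with a value are under it and lower in Cdo1AKO. DESeq2 on the counts also called Csad (adjusted p = 0.0121) and not Cdo1 (adjusted p = 0.0736), and it called 2.46% of genes, 1.60% as lower in Cdo1AKO.

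Csad overlaps Zfp740, a zinc finger gene on the opposite strand, by 1476 bases, of which 278 are exonic in both genes (GENCODE M21, GRCm38). The strand setting of the counting is not given, so reads there cannot be assigned by strand. Zfp740 had 2555, 1393 and 2430 counts in Cdo1AKO 1 to 3, against 1786, 2237 and 2315 counts in control 1 to 3, and its log2 fold change was -0.01 ± 0.19 (SE). Windows around the starts of Csad are shown because the RefSeq table gives more than 1 start, of which the first lies inside Zfp740. The first Csad window lies at chr15:102205003-102205302 and the second at chr15:102188994-102189293. The window of Ado, at chr10:67548906-67549205, is shown beside them because its levels did not follow those of Csad. Of the 6 genes, Csad, Ado and Got1 were matched in the table and could be shown. All are RefSeq sequences of GRCm38.p6, read on the minus strand from 250 bases before the start to 50 after it. Capitals mark CCAAT or, for the other strand, ATTGG.
Csad, first start: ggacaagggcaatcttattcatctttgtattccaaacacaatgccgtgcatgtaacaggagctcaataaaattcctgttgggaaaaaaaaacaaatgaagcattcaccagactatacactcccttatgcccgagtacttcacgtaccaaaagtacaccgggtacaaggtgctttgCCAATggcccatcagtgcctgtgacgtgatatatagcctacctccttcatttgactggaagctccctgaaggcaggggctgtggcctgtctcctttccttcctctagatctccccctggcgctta
Csad, second start: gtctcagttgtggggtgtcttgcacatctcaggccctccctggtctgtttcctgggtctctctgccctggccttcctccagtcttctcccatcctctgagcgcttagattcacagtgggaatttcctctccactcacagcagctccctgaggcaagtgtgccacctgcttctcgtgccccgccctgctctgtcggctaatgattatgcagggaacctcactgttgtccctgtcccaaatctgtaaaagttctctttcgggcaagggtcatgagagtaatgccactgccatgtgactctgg
Ado: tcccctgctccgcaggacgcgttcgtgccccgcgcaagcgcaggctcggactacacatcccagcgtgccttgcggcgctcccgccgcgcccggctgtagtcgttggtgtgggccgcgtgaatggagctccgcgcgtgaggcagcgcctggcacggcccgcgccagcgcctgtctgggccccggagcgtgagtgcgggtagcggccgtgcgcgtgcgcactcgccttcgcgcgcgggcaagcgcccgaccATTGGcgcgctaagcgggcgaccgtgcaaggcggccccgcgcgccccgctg
CCAAT, read on both strands, occurs 1 time in the first Csad window and 1 time in the Ado window, and 0 times in the second Csad window. It occurs in 37.4% of the 32851 windows of this length in the table. The windows differ more in CG dinucleotides, with 6 and 5 in the windows of Csad and 51 in that of Ado, against a median of 7 over all windows. Of all windows, 99.3% held fewer than that of Ado, and 43.6% and 38.0% held fewer than the first and the second of Csad. The window of Got1, which did not follow Csad either, is not printed. It held CCAAT 6 times and 18 CG dinucleotides, and 70.3% of all windows held fewer CG. A relation of these sequences to the levels was not tested.

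Fmo1, the hypotaurine oxidase, followed Csad closely across the libraries. Fmo1, ENSMUSG00000040181, lies on the minus strand of chromosome 1 between 162829561 and 162866610. It had 122, 179.8 and 126 CPM in Cdo1AKO 1 to 3, against 347, 169 and 256 CPM in control 1 to 3. The groups overlapped, since Cdo1AKO 2 lay above control 2. The log2 fold change was -0.85 ± 0.31 (SE, 95% interval -1.59 to -0.11, edgeR adjusted p = 0.431), and it was -0.59 without control 1. The ratio of Fmo1 to Csad per length stayed within a narrow range, 0.466, 0.549 and 0.498 in Cdo1AKO 1 to 3, against 0.469, 0.391 and 0.462 in control 1 to 3. Of the 15 pairs among the 6 genes, Csad and Fmo1 were the most alike, with a root-mean-square difference of 0.15 in centred log2 CPM over the 6 libraries. Genes outside the route were closer to each, such as Klhl2 to Csad (0.05) and Osbpl1a to Fmo1 (0.05).

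Slc6a6, the taurine transporter, had a smaller difference and tight controls. Slc6a6, ENSMUSG00000030096, lies on the plus strand of chromosome 6 between 91684053 and 91759066. It had 194, 145 and 191 CPM in Cdo1AKO 1 to 3, against 252, 239.7 and 271 CPM in control 1 to 3. All Cdo1AKO libraries lay below all controls, and the lowest was Cdo1AKO 2, the library with the highest Cdo1 of its group. The log2 fold change was -0.53 ± 0.17 (SE, 95% interval -0.94 to -0.11, edgeR adjusted p = 0.398), a level of 69.5% of control. With the libraries scaled to adipocyte markers its log2 fold change was 0.18.

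Ado and Got1, which stand beside the main route, did not share the lower levels. Ado, ENSMUSG00000057134, is a gene of 1 exon on the minus strand of chromosome 10 between 67544511 and 67548955. It had 30.9, 26.3 and 26.3 CPM in Cdo1AKO 1 to 3, against 24.1, 25.2 and 24.5 CPM in control 1 to 3. Every Cdo1AKO library lay above every control, by a small margin in Cdo1AKO 2 and 3, as did 8.87% of all tested genes. The log2 fold change of Ado was 0.18 ± 0.14 (SE, 95% interval -0.16 to 0.51, edgeR adjusted p = 0.687). Without Cdo1AKO 1 it was 0.10. Got1, ENSMUSG00000025190, lies on the minus strand of chromosome 19 between 43499752 and 43524605. It had 19.02, 11.6 and 17.1 CPM in Cdo1AKO 1 to 3, against 13.2, 12.8 and 12.4 CPM in control 1 to 3. Cdo1AKO 1 and 3 were above all controls and Cdo1AKO 2 was below them. The log2 fold change of Got1 was 0.32 ± 0.22 (SE, 95% interval -0.22 to 0.85, edgeR adjusted p = 0.665), 0.17 without Cdo1AKO 1 and 0.50 without Cdo1AKO 2.

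**Figure D1:**
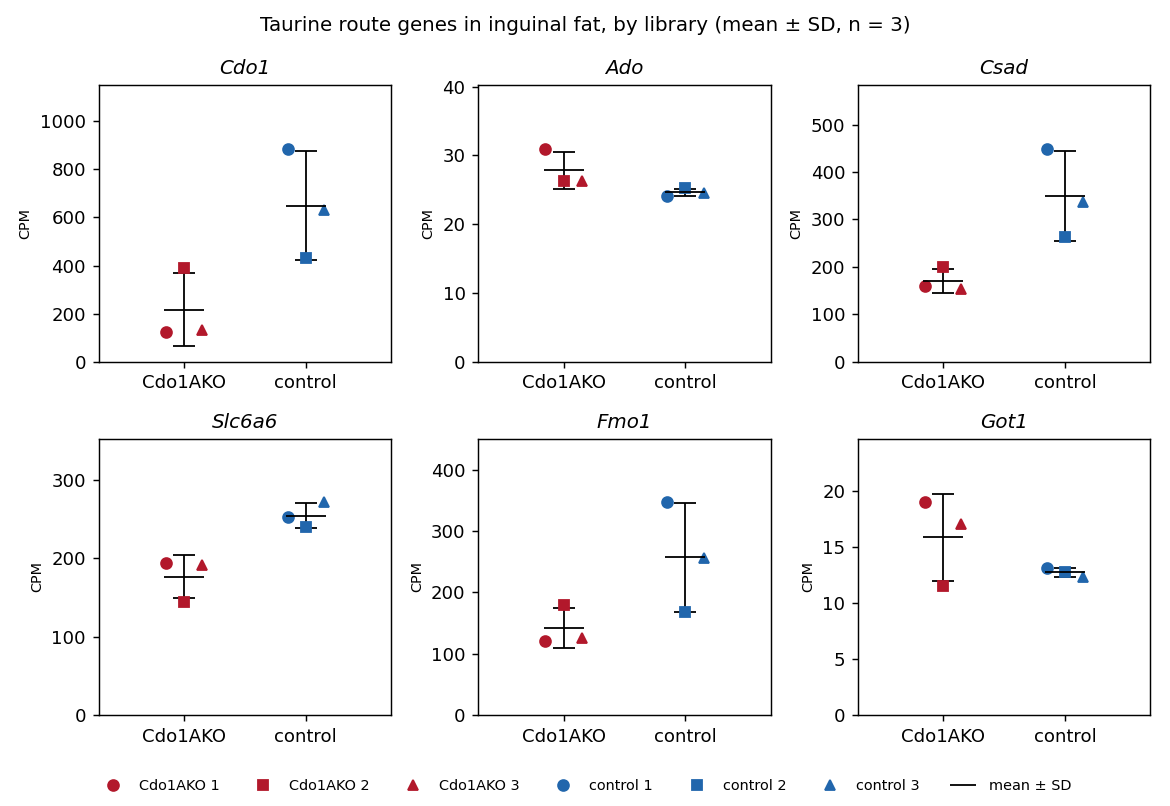
CPM (library-scaled counts) of the 6 genes in each library, Cdo1AKO left and control right, with a bar for the group mean ± SD (n = 3). Cdo1, Csad and Slc6a6 have every Cdo1AKO library below every control, Fmo1 and Got1 overlap, and the highest control of Cdo1, Csad and Fmo1 is control 1.

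Per unit of gene length Cdo1 was the highest of the 6 genes in every library, followed by Csad. In CPM per kilobase, Cdo1 spanned 80.4 to 256 in Cdo1AKO and 282 to 579 in control. Csad spanned 40.2 to 51.9 in Cdo1AKO and 68.4 to 117 in control. Fmo1, at 19.3 to 28.5 in Cdo1AKO and 26.8 to 55.0 in control, and Slc6a6, at 17.1 to 22.9 in Cdo1AKO and 28.3 to 32.1 in control, overlapped in both groups. Ado spanned 5.91 to 6.96 in Cdo1AKO and 5.42 to 5.67 in control, and Got1 4.55 to 7.49 in Cdo1AKO and 4.87 to 5.19 in control, close to the median tested protein-coding gene of each library (4.99 to 5.66). Ado and Got1 overlapped in Cdo1AKO, while in control every value of Ado was above every value of Got1. Fmo1 was above Slc6a6 in Cdo1AKO 2 and in controls 1 and 3, and below it in Cdo1AKO 1 and 3 and in control 2.

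**Figure D2:**
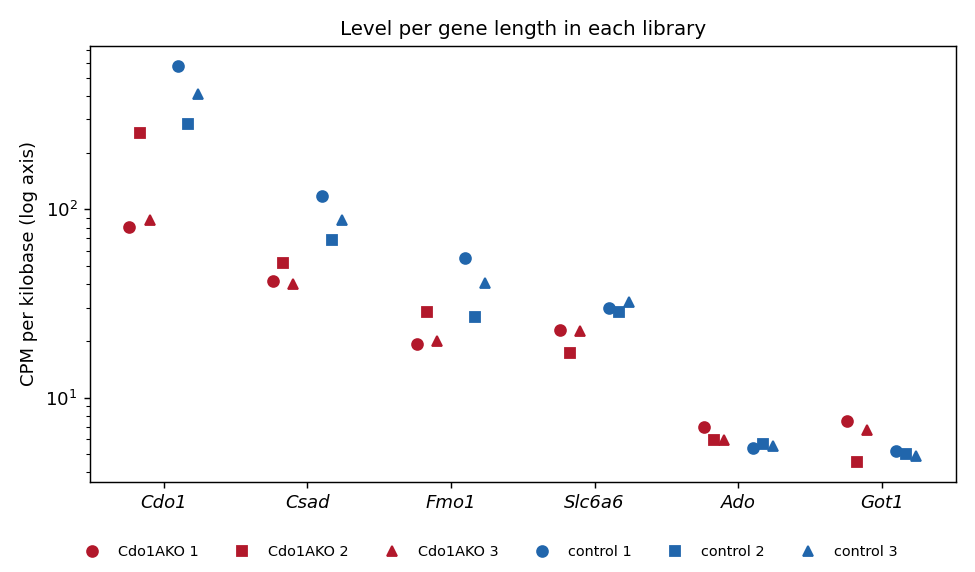
Level per gene length, in CPM per kilobase on a log axis, of each gene in each library, with Cdo1AKO libraries left of controls. Genes run from the highest to the lowest control mean, from Cdo1 at 282 to 579 in controls down to Got1 at 4.87 to 5.19.

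Ratios within a library do not depend on the scaling of libraries, but they can still follow the cell makeup of a library. Got1 over Csad, the enzymes that compete for cysteine sulfinate, was 0.181, 0.0877 and 0.168 per length in Cdo1AKO 1 to 3, against 0.0443, 0.0735 and 0.0553 in control 1 to 3. All Cdo1AKO values were above all control values, and the mean log2 ratio was higher by 1.29. Ado over Cdo1, the alternative entries to hypotaurine, was 0.0865, 0.0231 and 0.0675 in Cdo1AKO 1 to 3, against 0.00936, 0.0201 and 0.0134 in control 1 to 3. Its groups did not overlap either, and its mean log2 ratio was higher by 1.91. The deleted gene is the denominator of every ratio over Cdo1, so this rise mostly restates the lower Cdo1. By edgeR the log2 fold change was -1.59 for Cdo1 and 0.18 for Ado. Got1 over Csad and Ado over Cdo1 were both lowest in control 1 among controls and in Cdo1AKO 2 within its group. Those are the libraries without lymph node transcripts. They also had the highest adipocyte marker sums of their groups, 71828 CPM in control 1 and 61995 CPM in Cdo1AKO 2. The cause was not tested. For each of these ratios the two-sided exact permutation p was 0.1, the smallest that 3 against 3 libraries allow, and 0.25 adjusted over 5 ratios. Csad over Cdo1 (0.515, 0.203 and 0.458 in Cdo1AKO, against 0.202, 0.243 and 0.214 in control) and Slc6a6 over Cdo1 (0.285, 0.0671 and 0.258 in Cdo1AKO, against 0.0516, 0.10 and 0.0779 in control) overlapped, each through Cdo1AKO 2. Their exact permutation p was 0.3, and that of Fmo1 over Csad was 0.2.

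Lymph node transcripts differed between libraries of the same group, so the comparison was repeated with a term for them. Values that follow are edgeR log2 fold changes with adjusted p over all tested genes. With the term, Cdo1 had -1.76 ± 0.25 (adjusted p = 0.0256) and Csad -1.02 ± 0.16 (adjusted p = 0.0301), and both fell by this fit. Over all fits run, those that leave out 1 library included, the adjusted p ranged between 0.00345 and 0.937 for Cdo1 and between 0.00854 and 0.937 for Csad. Fmo1 had -0.83 ± 0.18 (adjusted p = 0.0537) and Slc6a6 -0.54 ± 0.15 (adjusted p = 0.0928). Ado had 0.18 ± 0.13 and Got1 0.29 ± 0.19. The term left the estimates nearly where they were and narrowed their errors. It called 4.13% of all tested genes, 1.87% as lower in Cdo1AKO. The term sets apart Cdo1AKO 2 and control 1, which also had the highest adipocyte marker sums of their groups. Lymph node and adipocyte content therefore cannot be told apart by it. Within the 4 libraries that hold lymph node transcripts, Cdo1 had -2.05, Csad -0.94 and Fmo1 -0.78, and these 3 passed (adjusted p = 0.00345, 0.00854 and 0.0358), where 15.3% of all tested genes did, 7.70% as lower in Cdo1AKO. Slc6a6 had -0.41 there (adjusted p = 0.0504). The Cdo1AKO libraries of that fit are 1 and 3, the most alike pair of libraries. Their mean chi-square per gene was 5.59, against 23.1 to 204 for the other pairs within groups. The labels do not say that they came from separate mice, so the spread behind these p-values may be technical. The libraries without lymph node transcripts are 1 per group and allow no test. In that pair the log2 ratio was -1.18 for Cdo1, -1.17 for Csad, -0.95 for Fmo1, -0.80 for Slc6a6, 0.13 for Ado and -0.19 for Got1.

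**Figure D3:**
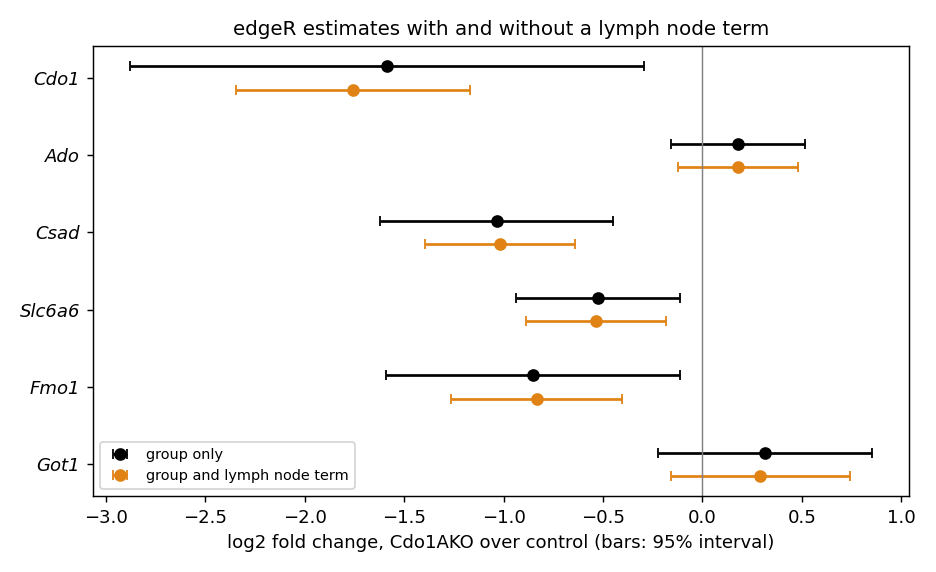
Log2 fold change of Cdo1AKO over control for the 6 genes, with 95% intervals, from the edgeR fit with group only and from the fit with a lymph node term. Points move little between the fits, and the interval of Cdo1 spans -2.88 to -0.29 with group only and -2.35 to -1.17 with the term.

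Of the 14 adipocyte markers 0 passed the edgeR test, which called 0 of all tested genes. Their sums overlapped between the groups, with Cdo1AKO 2 above controls 2 and 3. At an unadjusted edgeR p under 0.05, 4 markers were lower in Cdo1AKO and 0 higher, where 5.71% of all tested genes were lower. Without overlap, 5 markers were lower and 0 higher, where 9.73% of all tested genes were lower. Of these markers 12 had a negative log2 fold change, with a median of -0.45 against 0.06 over all tested genes. Fabp4, the fatty acid binding protein of adipocytes, made up 30.7% of their sum on average. Cfd, 1 of the 5 markers lower without overlap, made up 8.92%, 2.07% and 8.62% in Cdo1AKO 1 to 3. In control 1 to 3 it made up 19.4%, 13.7% and 15.8%. Markers that are lower in Cdo1AKO make the sum smaller there, which raises values set against it. Set against that sum, Cdo1 had 4.23, 6.31 and 4.34 CPM per 1000 CPM of markers in Cdo1AKO 1 to 3, against 12.3, 9.13 and 11.2 in control 1 to 3. Here Cdo1AKO 2 lay well below control 2. Csad had 5.45, 3.21 and 4.98 in Cdo1AKO 1 to 3, against 6.25, 5.54 and 5.99 in control 1 to 3, again without overlap. By this measure 1.20% of all tested genes were without overlap and lower in Cdo1AKO. Fmo1, at 2.90 to 4.18 in Cdo1AKO and 3.57 to 4.82 in control, and Slc6a6, at 2.34 to 6.66 in Cdo1AKO and 3.51 to 5.07 in control, overlapped. The exact permutation p was 0.1 for Cdo1 and Csad, the smallest possible, and 0.3 adjusted over the 6 genes.

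In an edgeR fit scaled to the same markers the log2 fold changes were -1.13 for Cdo1, -0.38 for Csad, -0.21 for Fmo1, 0.18 for Slc6a6, 0.84 for Ado and 1.05 for Got1, none with an adjusted p under 0.05. That scaling moved the median of all genes to 0.69. Relative to that median the values were -1.82 for Cdo1, -1.07 for Csad, -0.90 for Fmo1, -0.50 for Slc6a6, 0.16 for Ado and 0.36 for Got1.

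**Figure D4:**
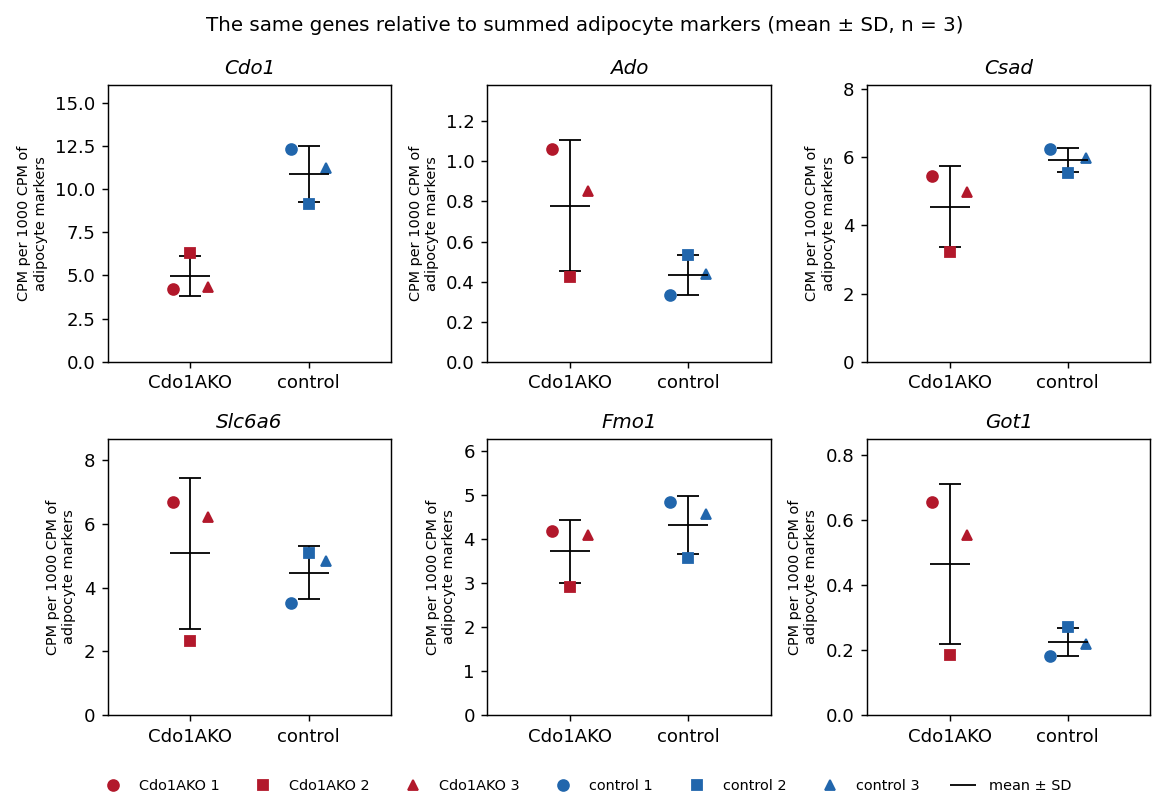
CPM of each gene per 1000 CPM of summed adipocyte markers, by library, Cdo1AKO left and control right, with the group mean ± SD (n = 3). Cdo1 (4.23 to 6.31 in Cdo1AKO, 9.13 to 12.3 in control) and Csad have no overlap, and Slc6a6 overlaps.

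Around these 6 genes, 55 others of the same metabolism were read from lists by role, and 48 were tested. By edgeR with group only, 0 passed at an adjusted p under 0.05. Within the 4 libraries with lymph node transcripts edgeR called 6 higher and 10 lower in Cdo1AKO of the 48, where it called 15.3% of all tested genes. At an unadjusted p under 0.05 there were 3 higher and 4 lower in Cdo1AKO, where 4.66% of all tested genes were higher and 5.71% lower. The 24 positive and 24 negative fold changes had a median of 0.04. Values of single genes are log2 fold changes ± SE.

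Among enzymes near Csad and Got1, Csad was the decarboxylase with the most transcripts. Gadl1, a related decarboxylase, had 3, 2 and 3 counts in Cdo1AKO 1 to 3 and 0 in every control, and Gad2 had 0 counts in all libraries. Gad1, a glutamate decarboxylase, had 0.60 ± 1.44. Of the 8 aminotransferase and malate-aspartate shuttle genes, Got1l1 had 1.18 ± 0.30, with 8.19, 5.01 and 5.32 CPM in Cdo1AKO 1 to 3, against 3.19, 2.67 and 2.30 CPM in control 1 to 3. DESeq2 called Got1l1, and edgeR (adjusted p = 0.345) and the authors' deposited table (adjusted p = 0.0671) did not. The mitochondrial aminotransferase Got2 had 0.56 ± 0.34 and the aspartate-glutamate carrier Slc25a12 0.69 ± 0.37.

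Of the flavin monooxygenases, 4 of 4 tested genes, Fmo1 included, had negative values, with a median of -0.82 against 0.06 over all tested genes, of which 7311 of 16623 were negative. None of the 4 passed the edgeR test. Fmo4 had -1.24 ± 0.41 and Fmo5 -0.79 ± 0.23, both without overlap and lower in Cdo1AKO, as 9.73% of all tested genes were, and Fmo2 had -0.32 ± 0.34. Fmo5 stood at 44.1, 40.8 and 39.7 CPM in Cdo1AKO 1 to 3, against 92.4, 50.3 and 73.2 CPM in control 1 to 3. Of the taurine transport and release genes, 6 of 8 tested had positive values, as had 9312 of all 16623 tested genes, and Slc6a6 and Lrrc8a had negative ones. Lrrc8b and Lrrc8c, subunits of the volume-regulated anion channel that can release taurine, had 0.79 ± 0.30 and 0.50 ± 0.21, and Lrrc8a, a subunit of the same channel, had -0.62 ± 0.40.

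The gene with the smallest p among the 48 was Vnn3, a pantetheinase of the vanin family, which releases the cysteamine that Ado uses. Vnn3, ENSMUSG00000020010, lies on the plus strand of chromosome 10 between 23851462 and 23869843. It had 27.2, 20.5 and 25.9 CPM in Cdo1AKO 1 to 3, against 80.2, 49.8 and 58.1 CPM in control 1 to 3. The groups lay well apart, with a log2 fold change of -1.35 ± 0.23 (SE, edgeR adjusted p = 0.248). DESeq2, which called 2.46% of genes, called Vnn3, and the authors' deposited table gives it an adjusted p of 8.12e-04. It was the single gene of the 48 called by edgeR with the lymph node term, where 4.13% of all tested genes were called. These fits share the counts by which Vnn3 was picked, so they are not separate support. Vnn1, another pantetheinase, had -0.64 ± 0.68. Of the enzymes of coenzyme A synthesis, Ppcs had 0.29 ± 0.16 and Pank1 -0.48 ± 0.32.

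Mto1, which takes part in the taurine-containing modification of mitochondrial tRNA, had -0.52 ± 0.17, its partner Gtpbp3 0.32 ± 0.22, and Pter 0.67 ± 0.41. Among osmotic stress genes the regulator Nfat5 had 0.13 ± 0.25, the inositol transporter Slc5a3 0.43 ± 0.40 and the aldose reductase Akr1b3 -0.26 ± 0.23, so Slc6a6 was the member furthest below 0. In the degron pathway that Ado serves by oxidising protein N-terminal cysteines, the ligases Ubr1 and Ubr2 had -0.17 ± 0.13 and -0.35 ± 0.18 and the arginyltransferase Ate1 -0.26 ± 0.14. Of cysteine supply and sulfite removal, the transporter Slc1a4 had 1.11 ± 0.33, the sulfite oxidase Suox -0.35 ± 0.14 and the cystathionine synthase Cbs -0.83 ± 0.48.

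**Figure D5:**
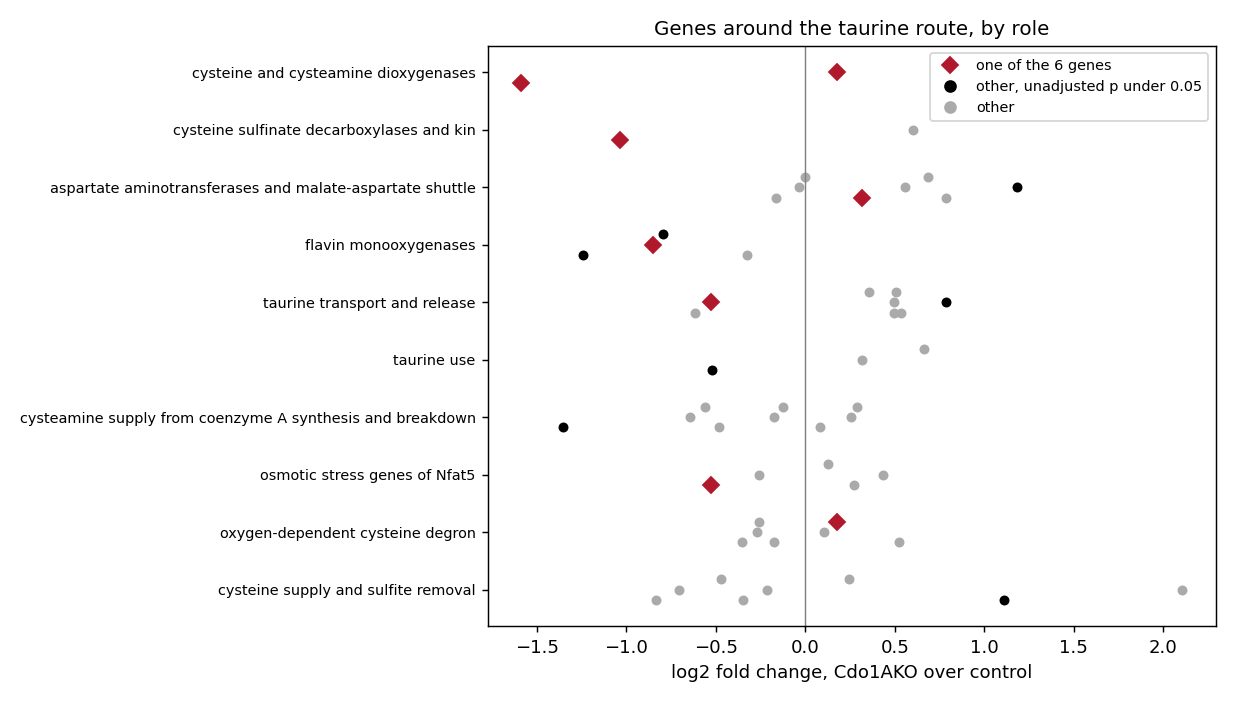
Log2 fold change of Cdo1AKO over control (horizontal axis) for the tested genes of 10 lists by role, with the 6 genes as diamonds. The flavin monooxygenases lie left of 0, and Vnn3 at -1.35 and Got1l1 at 1.18 are the furthest of their lists.

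The genes with profiles closest to each of the 6 were found among 11196 other protein-coding genes with a mean of at least 5 CPM, by the root-mean-square difference of centred log2 CPM over the 6 libraries. Closest to Cdo1 were Hoxa9 (0.16), Prodh (0.21) and Arxes2 (0.23). Prodh encodes proline dehydrogenase and stood at 27.9, 64.2 and 28.4 CPM in Cdo1AKO 1 to 3, against 170, 64.1 and 109 CPM in control 1 to 3. For Csad the smallest differences were those of Klhl2 (0.05), Aldh6a1 (0.07), an enzyme of valine breakdown, and Rhobtb1 (0.07). Closest to Fmo1 were Osbpl1a (0.05), Agmo (0.06), an alkylglycerol monooxygenase, and Rbms2 (0.07). For Slc6a6 these were Fndc3a, Gpr146 and Rere (0.05 to 0.06), for Ado Nrbp1, Ehmt2 and Rnf215 (0.03 to 0.05), and for Got1 Lypla2, Plgrkt and Eefsec (0.06). All values come from the same 6 libraries and share their depth and cell makeup.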

How the data were processed

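RNA was isolated with TRIzol and made into libraries with a NEBNext Ultra kit, per the labels' protocols. The authors deposited 1 table of raw counts per gene, with FPKM values and the log2 fold changes and p-values of their comparison of Cdo1AKO with WT. The submitters' processing notes list the build mm10, DESeq2 1.20.0, featureCounts 1.5.0-p3 and HISAT2 2.0.5, without roles. The FPKM values deposited by the authors were used for a check of ratios.

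Table columns were matched to samples by genotype and number. Counts were fitted with edgeR 4.0.16 in R 4.3.3 (TMM factors, filterByExpr by group, 16623 of 54532 genes, quasi-likelihood test with group as the only term) and adjusted by Benjamini-Hochberg over all tested genes, with a threshold of 0.05. Confidence intervals are 95% intervals. Libraries were marked as holding lymph node where the median of 14 markers was above 5 CPM. Alternatives used other factors and filters, DESeq2 1.42.0, limma-voom (limma 3.58.1), robust estimation, a replicate block and each library left out. The genes, lists and tests were chosen with earlier results of these data known. All 6 genes are named whatever their result, as are up to 3 genes of each list by smallest p. The labels do not say that libraries of a group came from separate mice, and a p-value here reflects spread among these 6 libraries, which may be technical. Mean chi-square per gene between Cdo1AKO 1 and 3 was 5.59, above sampling noise but below the 23.1 to 204 of the other pairs within groups, and each library was counted as 1 sample.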

Additional observations from a re-analysis of the deposited data

How the results depend on the processing

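Cdo1, Ado, Csad and Fmo1 kept the sign of their log2 fold change under all 19 alternatives. Slc6a6 turned to 0.18 with adipocyte marker scaling, and Got1 to -0.19 in the 2 libraries without lymph node transcripts, a comparison added after the data were seen. The 5 ratios kept their direction with each library left out and within the 4 libraries with lymph node transcripts. FPKM values and pairing cannot move these differences by construction. The edgeR fit called 0 genes, DESeq2 392, edgeR with the lymph node term 686, and edgeR within the 4 libraries with lymph node transcripts 2617. Csad passed with DESeq2 (log2 fold change -1.03). With the lymph node term Cdo1 (-1.76) and Csad (-1.02) passed, and within the 4 libraries Cdo1 (-2.05), Csad (-0.94) and Fmo1 (-0.78) passed, and the cause was not tested. The Cdo1AKO libraries of those 4 are 1 and 3, the most alike pair, whose spread may be technical.

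Leaving out each library in turn gave log2 fold changes from -2.33 to -1.30 for Cdo1, -1.21 to -0.82 for Csad, -1.08 to -0.59 for Fmo1, -0.60 to -0.40 for Slc6a6, 0.10 to 0.22 for Ado and 0.17 to 0.50 for Got1, with 0 calls in each fit. The same-number libraries did not all deviate together (correlations of -0.66, -0.67 and 0.45), and not every library correlated best with its own number. The highest correlation, 0.71, was between Cdo1AKO 2 and control 1, the libraries without lymph node transcripts. These values therefore cannot show or exclude a pairing by number. With the replicate block edgeR called 0 genes, 909 had an unadjusted p under 0.05, and Cdo1 had -1.77, Csad -1.01, Fmo1 -0.82, Slc6a6 -0.54, Ado 0.17 and Got1 0.29. Pairing leaves the mean difference of a ratio unchanged by arithmetic, and the exact p of Ado over Cdo1 and of Got1 over Csad was then 0.25, against 0.1 without pairing.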

Other observations

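A few genes near the taurine route spread widely within the Cdo1AKO group. Vnn1, a pantetheinase like Vnn3, had 92.4, 12.6 and 93.8 CPM in Cdo1AKO 1 to 3, against 124, 84.1 and 103 CPM in control 1 to 3, so the low value was in Cdo1AKO 2 alone. Slc7a11, the cystine transporter subunit, had 15.1, 0.0642 and 16.9 CPM in Cdo1AKO 1 to 3, against 0.245, 4.65 and 2.52 CPM in control 1 to 3. Cth, which makes cysteine from cystathionine, had 1.60, 15.4 and 2.47 CPM in Cdo1AKO 1 to 3, against 5.02, 5.61 and 5.67 CPM in control 1 to 3. For Cth the highest and the lowest values were both in Cdo1AKO. These 3 genes were named after their values were seen. With a term for lymph node in edgeR, Slc7a11 had a log2 fold change of 1.89 ± 0.50 (adjusted p = 0.0830), Vnn1 -0.97 ± 0.63 and Cth -0.43 ± 0.63 (SE). Within the 4 libraries with lymph node transcripts edgeR called Slc7a11 and Cth and not Vnn1, where it called 15.3% of all tested genes. That fit rests on Cdo1AKO 1 and 3, the most alike pair, whose spread may be technical.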
